A study of Homo sapiens with 2 samples.

Results

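NEAT1 and MALAT1, a pair of nuclear long noncoding RNAs encoded next to each other on chromosome 11, were examined for the RNA fragments that crosslinked to Flag-tagged wild-type RBM47. RBM47 is an RNA-binding protein. HITS-CLIP uses ultraviolet light to crosslink a protein to the RNA it touches, then pulls the protein down and sequences the attached fragments. Unique fragments are called tags, and overlapping tags form a cluster. Every cluster with the symbol NEAT1 or MALAT1 was taken, 6 of the 233546 deposited clusters, with 5 for NEAT1 and 1 for MALAT1. The RNAs were selected on their tag totals, the highest of the 7712 named genes, so these totals and the ranks built on them are given as a description with no test. The next gene by tags, EXT1, held 54399 tags spread over 1209 clusters, the largest of which had 856 tags.

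The cells were MDA231-BrM2a, brain-metastatic cells derived from the breast cancer line MDA-MB-231 without cloning. They carried Flag-RBM47 under a doxycycline-inducible promoter, and the transgene was switched on over 3 days by doxycycline at 1 ng/ml. The samples form 1 group with 2 replicates, and both received the same transgene, dose and irradiation. Nothing in the labels says that the replicates came from separate cultures. The paper calls binding seen in both replicates biologically reproducible, but it does not describe separate cultures. Differences between the replicates may therefore be technical. The listed clusters held 999047 tags in replicate 1 and 3489697 in replicate 2, and intervals below cover counting error only. No input RNA or control pull-down was analysed here. Tags rise with the amount of an RNA as well as with its contact with RBM47, and these cannot be told apart in these data.

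NEAT1 is the architectural RNA of paraspeckles, nuclear bodies that hold RNA-binding proteins such as NONO, SFPQ and PSPC1. The gene gives a short polyadenylated RNA and a long RNA from the same start, and the long form is the one that builds the body. MALAT1 is an abundant RNA of nuclear speckles, where splicing factors of the SR family are stored. The long NEAT1 RNA and MALAT1 do not end in a poly(A) tail. Their ends are cut by RNase P, and U-rich stretches fold onto an A-rich stretch to form a triple helix that protects the end.

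The shared 3′ elements and the longest U tracts are shown because they are the stretches by which the RNAs can be recognised and compared. The sequences are those of the longest GENCODE transcript of each gene, NEAT1-202 with 22743 nt and MALAT1-202 with 10434 nt, in DNA letters with T for U. They were read by transcript name and were not placed on the clusters, because the clusters are on hg18 and no sequence of that build was used. Capitals mark the searched letters TTTTGCTTTT or AAAAGCAAAA on the transcript strand, or the U tract.
NEAT1 U-rich element, nt 22683 to 22712: cgcactcaggTTTTGCTTTTcaccttccca
MALAT1 U-rich element, nt 8422 to 8451: ttttctcaggTTTTGCTTTTtggccttttt
NEAT1 A-rich end, nt 22714 to 22743: ctgtgaaagagtgagcaggaAAAAGCAAAA
MALAT1 A-rich element, nt 8458 to 8487: taaaaaaaaaAAAAGCAAAAgatgctggtg
NEAT1 longest U tract, nt 19323 to 19352: gttttgaTTTTTTTTTTTTTTTTaatggtc
MALAT1 longest U tract, nt 9813 to 9842: aactaccTTTTTTTTTTTTTTTaatggtat

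In NEAT1 the A-rich match forms the last bases of the transcript, and the U-rich match ends 41 nt before the transcript does. In MALAT1 the A-rich match ends at nt 8477 and is followed by 1957 nt of annotated transcript, in which its longest U tract lies. Up to nt 8477 the longest U tract of MALAT1 had 13 nt. A further AAAAGCAAAA lies near the start of MALAT1, at nt 876 to 885. TTTTGCTTTT was found in 1.32% of 254413 GENCODE transcripts, AAAAGCAAAA in 1.48%, and both in 0.0770%. Among the 14790 transcripts of at least 5 kb, 0.832% held both. These matches are a description of the letters and say nothing of contact with RBM47.

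Both transcripts were richer in U than most. U made up 31.7% of NEAT1-202 and 29.0% of MALAT1-202, beside a median of 24.5% over all transcripts and 27.0% over those of at least 5 kb. Runs of at least 5 U occurred 89 times in NEAT1-202, or 3.91 per kb. MALAT1-202 had 47 such runs, 4.50 per kb, and its first 8477 nt, up to the end of the A-rich match, had 39, or 4.60 per kb. The median among transcripts of at least 5 kb was 2.20 per kb, and 97.96% of them held such a run. By U content, NEAT1-202 exceeded 89.1% of these long transcripts, but MALAT1-202 exceeded only 66.8%. By runs per kb, NEAT1-202 exceeded 83.9% of them and MALAT1-202 exceeded 91.0%. These figures compare transcripts, and tags were not counted around the runs.

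MALAT1 was covered by a single cluster, on the plus strand at chr11:65023090-65030144 (hg18), which the authors labelled as exon of an unclassified transcript. It was 7054 nt long, held 16307 tags in replicate 1 and 56460 in replicate 2, and had the most tags of any cluster in the table. RefSeq lists the MALAT1 gene at 8779 nt in GRCh38.p14, so the cluster was as long as 80.4% of the gene. The level was 16.3 tags per 1000 tags of replicate 1 and 16.2 of replicate 2, with a mean of 16.3 ± 0.101 (SD, n = 2). The replicates differed little in this share of tags.

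The 5 NEAT1 clusters lay end to end over chr11:64946843-64963719 on the same strand and covered 99.8% of that span. They held 19140 tags in replicate 1 and 76016 in replicate 2. The level was 19.2 tags per 1000 in replicate 1 and 21.8 in replicate 2, with a mean of 20.5 ± 1.86 (SD, n = 2). NEAT1 thus had more tags than MALAT1 in both replicates, by 1.17-fold in replicate 1 and 1.35-fold in replicate 2. Per length the order was the opposite. NEAT1 had 1.14 tags per kb of clusters per 1000 tags in replicate 1 and 1.29 in replicate 2, and MALAT1 had 2.31 and 2.29. The ratio of NEAT1 to MALAT1 per kb was 0.492 in replicate 1 and 0.564 in replicate 2, with a mean of 0.528 ± 0.0511 (SD, n = 2).

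The tags were unevenly spread along NEAT1, with the highest density in the middle. The first cluster, chr11:64946843-64948986, held 979 tags in replicate 1 and 4545 in replicate 2, which is 0.533 ± 0.106 tags per kb per 1000 (SD, n = 2). The second, chr11:64948989-64950966, held 2078 and 8154 tags, or 1.12 ± 0.0918 per kb per 1000. The third, chr11:64950964-64961263, held 14295 and 55367 tags and had the highest density of the 5, at 1.46 ± 0.107 per kb per 1000. It contained 73.2% of the tags with the NEAT1 symbol. Density then fell to 0.906 ± 0.151 per kb per 1000 in the fourth, chr11:64961285-64963489, which held 1760 and 7793 tags. The last cluster, chr11:64963498-64963719, was 221 nt long and held 28 and 157 tags, or 0.165 ± 0.0543 per kb per 1000. In each replicate the order of the 5 densities was the same. The second and the third clusters overlap by 2 nt, and their replicate columns exceed the authors' totals by 4 and 10 tags.

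**Figure D1:**
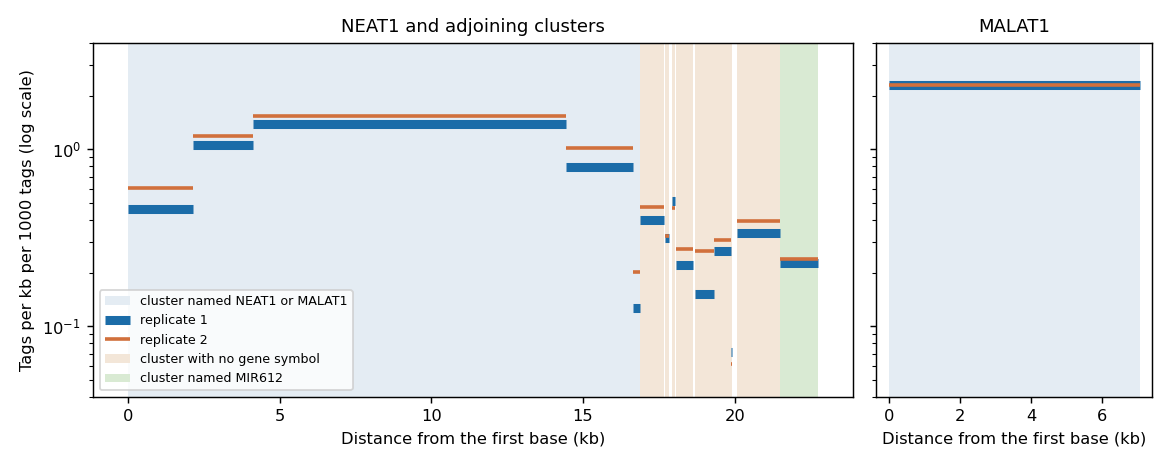
Tags per kb per 1000 tags of each replicate (log axis) against distance in kb from the first base, for the NEAT1 clusters with the clusters adjoining them (left) and for MALAT1 (right). Each pair of lines is a cluster, and shading gives the deposited name. In the NEAT1 panel density peaks in the third cluster at a mean of 1.46 per kb per 1000 and reaches its lowest in the 12-tag cluster, at 0.0665, while the replicate lines of MALAT1 overlie each other.

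The tags did not stop where the NEAT1 symbol stopped. A further 9 clusters on the same strand continued the run, 8 with no gene symbol and the last with the symbol MIR612, a microRNA gene that RefSeq places inside NEAT1. The first of them began 6 nt after the last NEAT1 cluster, and no gap in the run exceeded 154 nt. The clusters without a symbol were labelled as lying within 10 kb of genes and held 12 to 2391 tags each. The one with most tags, chr11:64966917-64968319, held 471 tags in replicate 1 and 1920 in replicate 2. The cluster named MIR612, chr11:64968345-64969585, was labelled intron and held 282 and 1040 tags. It was 1240 nt long, and RefSeq gives the microRNA gene 100 nt. Its tags therefore come from a region much longer than the microRNA hairpin.

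The run of 14 clusters extended over chr11:64946843-64969585, a span of 22742 nt. RefSeq gives the NEAT1 gene 22743 nt, 1 nt more than the run, whereas the clusters with the symbol spanned 74.2% of that length. The 9 further clusters held 7811 tags, 7.59% of the 102953 tags of the run, over 25.8% of its length. Their density was 0.306 ± 0.0355 tags per kb per 1000 (SD, n = 2), beside 1.22 ± 0.110 for the clusters named NEAT1. The density was lower than that of the named clusters in both replicates, at 0.281 and 0.331 beside 1.14 and 1.29. With them, the level of NEAT1 came to 22.1 ± 2.05 tags per 1000 (SD, n = 2).

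The 8 other NEAT1 transcripts in GENCODE are shorter than NEAT1-202, and each ends at or before its nt 3716. If the run starts at the first base of the transcript, which was inferred only from the equal lengths, 12 of the 14 clusters began beyond the end of every short form. These 12 clusters held 85.2% of the run's tags in replicate 1 and 84.6% in replicate 2. By the authors' totals they had 4800 tags per kb, beside 3823 tags per kb in the 2 clusters that begin within the reach of the short forms. Tags there can come from either form, so their share from the long RNA was not measured.

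When all clusters on a strand that lay within 200 nt of each other were joined, 111303 chains resulted. The NEAT1 run held the most tags of any chain and was the fifth longest. The 4 longer chains were built from 95 to 138 clusters each, none of which had a gene symbol, and held 7121 to 12056 tags. As single clusters, the third of NEAT1, with 10299 nt, and that of MALAT1 were the longest in the table, where the median length was 82 nt. The next longest, in coding sequence of FAT1, measured 4090 nt and held 4114 tags. Since a cluster is formed from overlapping tags, clusters of such length do not locate separate contact sites.

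Few tags were listed around the genes. Between the end of the NEAT1 run and MALAT1 lie 53.5 kb, in which 6 deep intergenic clusters were listed with 6 to 13 tags each. All 6 lay 10.9 to 16.5 kb past the run, and replicate 1 gave no more than 2 tags to any of them. The 37.0 kb before MALAT1 held no listed cluster. The window from 100 kb before the NEAT1 clusters to 100 kb after that of MALAT1 held 21 listed clusters, those of the genes included. All were on the plus strand and 0 were on the minus strand, beside 53.0% of all clusters on the plus strand. Of the 21, however, 15 were those of the NEAT1 run and MALAT1, whose strand is that of the genes. The nearest plus-strand clusters beyond were a 9-tag cluster of CAPN1, 231 kb upstream, and a 6-tag cluster of PCNXL3, 118 kb downstream. The table lists only clusters with at least 1 tag in each replicate and 5 in total, so fewer tags there would not appear.

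The 6 clusters held 35.2% of the tags of chromosome 11. The chromosome held 5.89% of clusters but 10.7% of tags, and 7.23% of tags once the NEAT1 and MALAT1 clusters were left out. Leaving out the rest of the NEAT1 run as well gave 7.06%. The same 6 clusters held 76.5% of all tags labelled exon of an unclassified transcript, a class of 2312 clusters. No other cluster of that class had more than 817 tags, and their median was 9 tags.

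Whether the replicates contributed tags in the usual proportion was tested for every cluster, since this measure was not used to choose the genes. Replicate 1 gave 22.3% of the tags over all clusters. An exact two-sided binomial test against that share, with Benjamini-Hochberg adjustment over all clusters, called 26 clusters at an adjusted p under 0.05, 0.0111% of the table. Of the 26 called clusters, 23 had less from replicate 1, so that direction was not particular to NEAT1. Of the 6 NEAT1 and MALAT1 clusters 4 were called, all in NEAT1 and all with less from replicate 1. These are among the deepest clusters, where the test can resolve small deviations. The largest deviation of the 4 was in the first NEAT1 cluster, with 17.7% from replicate 1 (95% Wilson interval 16.7 to 18.8, exact binomial adjusted p = 3.27e-12). The fourth had 18.4% (17.7 to 19.2, exact binomial adjusted p = 2.18e-15). The second and the third were closer to the common share, at 20.3% and 20.5% (exact binomial adjusted p = 0.0172 and 1.19e-23). The last cluster had 15.1% with a wide interval of 10.7 to 21.0 and was not called (exact binomial adjusted p = 1.00). MALAT1 had 22.4% (22.1 to 22.7, exact binomial adjusted p = 1.00).

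The call depended on the share taken as usual. Clusters with at least 100 tags had a replicate 1 share of 20.8%. Against that share, the first and the fourth NEAT1 clusters still fell short (exact binomial adjusted p = 2.11e-04 and 1.94e-04). The second and the third NEAT1 clusters, at 20.3% and 20.5%, were no longer called. MALAT1 exceeded the share of 20.8% (exact binomial adjusted p = 3.80e-21). With extra variation between clusters allowed for, in a beta-binomial model, 0 of the 6 were called and 10 clusters of the table were, while 5 of the 6 had an unadjusted exact binomial p under 0.05. Among the 826 genes with at least 1000 tags, the replicate 1 share had a median of 21.6% and ran from 19.2% to 25.2% between the 5th and 95th percentiles. NEAT1, at 20.1%, and MALAT1, at 22.4%, lay within this range.

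**Figure D2:**
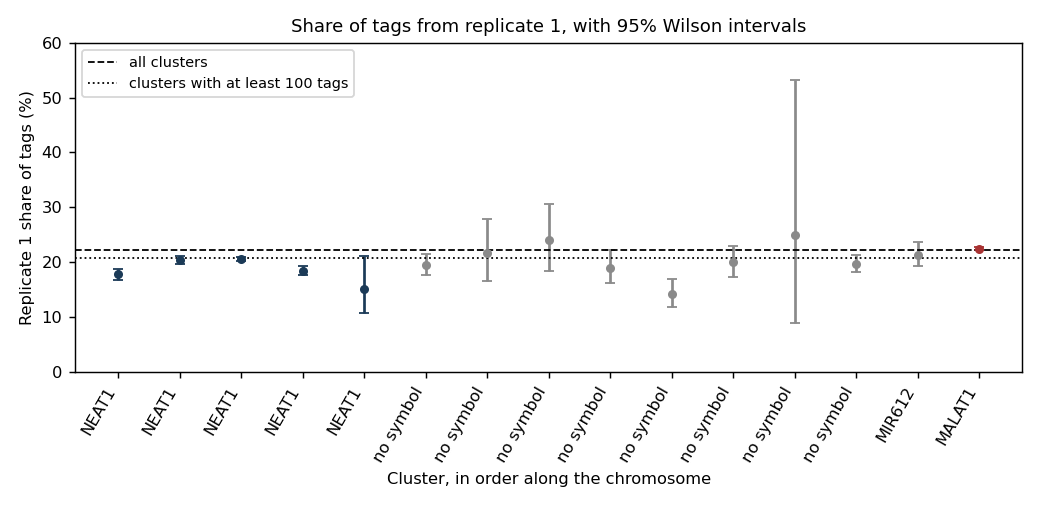
Share of each cluster's tags that came from replicate 1, in percent, for the 14 clusters of the NEAT1 run and MALAT1 in order along the chromosome; bars are 95% Wilson intervals. The dashed line is the share over all clusters (22.3%) and the dotted line that of clusters with at least 100 tags (20.8%); 12 of the 15 points lie below the dashed line and 10 below the dotted line.

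Per kb of clusters, MALAT1 ranked 1 and NEAT1 ranked 5 of the 7712 genes, with 10316 and 5648 total tags per kb. Between them were IL8 (CXCL8), a secreted chemokine, with 8265 tags per kb, LINC00486 with 8227, and DKK1, a secreted inhibitor of WNT signalling, with 7689. LINC00486 had a single cluster of 44 nt with 362 tags. SRGN, which encodes the proteoglycan serglycin, followed NEAT1 at 5601 tags per kb, a difference smaller than the spread of NEAT1 between replicates. With replicate 1 alone or with clusters of at least 10 tags, MALAT1 ranked 2 and NEAT1 ranked 6. With the further clusters of its run, NEAT1 had 4619 tags per kb and ranked 8.

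The genes closest in pattern were sought among 3807 genes with at least 100 tags, over 5 measures: tags, tags per kb, number of clusters, and the length and tag share of the largest cluster. Distances are in standard deviations. The closest to each RNA was the other, at a distance of 2.76, and the same 4 protein-coding genes completed both sets: CANX, DKK1, IL8 and CTGF. They lay 3.02 to 3.81 from NEAT1 and 2.91 to 4.11 from MALAT1, against median distances over all genes of 10.7 and 12.1. NEAT1 and MALAT1 were chosen for their tag totals, and tags and tags per kb are among the 5 measures. Their closeness to each other, and to other genes with many tags per kb, therefore follows in part from that choice. The distances are a description with no test. CANX, which encodes the chaperone calnexin of the endoplasmic reticulum, held 24793 tags at 5022 per kb. CTGF, which encodes a secreted matrix protein, held 10429 tags at 4648 per kb. In all 4 the largest cluster ran from coding sequence into 3′UTR, was 1416 to 2414 nt long and took 87.1% to 95.4% of the gene's tags. These clusters were shorter than the MALAT1 cluster and than the third NEAT1 cluster.

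**Figure D3:**
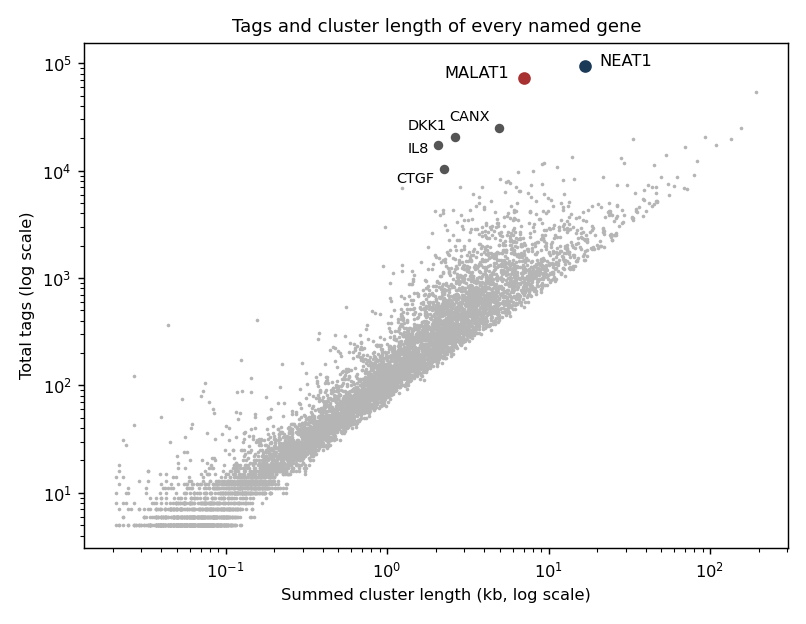
Total tags against summed cluster length in kb for each of the 7712 named genes, both on log axes. Each grey point is a gene; NEAT1 (95142 tags, 16.8 kb) and MALAT1 (72767 tags, 7.05 kb) lie at the top, above genes with similar cluster length. IL8, DKK1, CANX and CTGF are marked because they were closest over the 5 measures, not by distance on these axes.

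RNAs of the proteins that meet NEAT1 and MALAT1 were also in the table, at far lower levels. Of 42 paraspeckle protein genes, 26 had more than 100 tags, beside 18.3% of protein-coding genes in RefSeq. The speckle list held 22 genes, of nuclear speckle proteins or of proteins that meet MALAT1. Of these 22, 15 had more than 100 tags, beside the same 18.3%. The 18.3% also counts genes with no listed cluster, whereas 33 of the 42 and 21 of the 22 had one. Among all 7712 named genes, each with a cluster, 3807 had at least 100 tags. How strongly the listed genes were expressed was not measured here. TARDBP is in both lists. The median of the genes with a cluster was 242 tags for the paraspeckle list and 358 for the speckle list, beside 96 over all named genes. Per kb of clusters the medians were 137 and 147 tags, beside 116 over all named genes.

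In the paraspeckle list ZNF24, a zinc finger protein gene, led with 528 tags in replicate 1 and 2145 in replicate 2, and 87.4% of its tags were labelled 3′UTR. MATR3, which encodes the nuclear matrix protein matrin 3, held 372 and 1057 tags. SRSF10, an SR-family splicing regulator, held 226 and 797. PSPC1, a core paraspeckle protein, held 209 and 605, all in introns. FIGN, an ATPase gene, held 251 and 752 tags, also mostly in introns. In the speckle list HNRNPC, a U-tract-binding protein, held 626 and 2122 tags, and 71.9% of them were in introns. SRSF1, an SR-family splicing factor, held 283 and 1061, of which 84.9% were in the 3′UTR. SRSF11, SRSF6 and SON held 618 to 988 total tags. NEAT1 held 35.9 times the tags of ZNF24, and 12.4 times its tags per kb of clusters.

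The other long noncoding RNAs of the list held fewer tags, in total and per kb of clusters, than NEAT1 or MALAT1. The list does not hold LINC00486, whose short cluster had more tags per kb than NEAT1. Of the 36 RNAs listed, 22 had a cluster and 10 had more than 100 tags, beside 0.48% of the lncRNA genes in RefSeq, most of which are not expressed in any given cell. The median of the 22 was 53 tags, below the 96 of all named genes. Per kb of clusters their median was 134 tags, above the 116 of all named genes. FTX, transcribed from the X-inactivation centre, held 1885 tags in replicate 1 and 6926 in replicate 2 over 439 clusters, and 94.8% of them were in introns. TUG1, a spliced RNA of broad expression, held 450 and 1649 tags, 99.0% of them labelled exon as in NEAT1 and MALAT1. NORAD, a cytoplasmic RNA that binds Pumilio proteins and is listed as LINC00657, held 289 and 1068, and had 488 tags per kb of clusters, the highest of the list. LINC-PINT, listed as FLJ43663, held 332 and 961, and JPX held 304 and 830. MALAT1 had 21.2 times and NEAT1 11.6 times the tags per kb of NORAD, and the 2 RNAs together held 10.6 times the tags of the whole list.

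**Figure D4:**
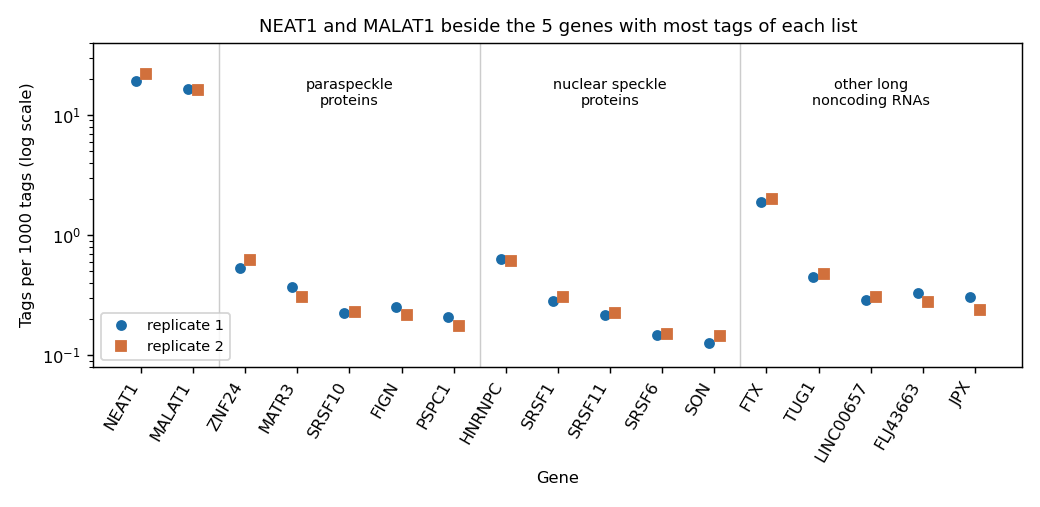
Tags per 1000 tags of each replicate (log axis) for NEAT1, MALAT1 and the 5 genes with most tags of each list; circles are replicate 1 and squares replicate 2. NEAT1 and MALAT1 lie at 16.2 to 21.8 per 1000, and the highest of the others, FTX, has a mean of 1.94.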

How the data were processed

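Flag-RBM47 HITS-CLIP was analysed in 2 replicates of 1 group. Fragments had been poly(A)-tailed and reverse transcribed with primers carrying a degenerate barcode. Reads were mapped, reduced to unique tags and clustered on Galaxy by the authors; the submitters' processing notes name Novoalign, with no version, and the hg18 build. For every cluster the authors deposited tag counts of each replicate and a total, with no normalisation. Clusters had at least 1 tag per replicate and 5 in total, read from the values. Whether positions count from 0 or 1 is not given in the sources used here.

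Tags were divided by the replicate's column sum (999047 and 3489697) and by cluster length (end minus start). The replicate split was tested per cluster by an exact binomial test, two-sided, with adjustment after Benjamini and Hochberg over 233546 clusters, which compares libraries and not conditions. On simulated data 93.5% of 200 clusters changed 4-fold in odds were recovered, with 1 unchanged cluster called. The deviations of the called NEAT1 clusters were much smaller than 4-fold, so this recovery does not apply to them. Intervals are Wilson intervals at 95%. NEAT1, MALAT1 and the lists were chosen with earlier results of these data known. Named genes were both RNAs, their neighbours within 100 kb, the 5 genes nearest in pattern and the 5 with most tags per list; EXT1, FAT1, SRGN, LINC00486, CAPN1 and PCNXL3 were added after their values were seen. GENCODE v44 transcripts gave sequences and RefSeq (GRCh38.p14) gave names, lengths and neighbours; 7669 of 7712 gene IDs matched. Python 3.11.15, NumPy 2.4.6, pandas 2.3.3, SciPy 1.17.1 and Matplotlib 3.10.9 were used.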

Additional observations from a re-analysis of the deposited data

How the results depend on the processing

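Of 37 alternative values for 8 results, 22 stayed within the tolerance set for them, 15 moved and 0 reversed. NEAT1 ranked 1 and MALAT1 ranked 2 by tags under every alternative tried. With clusters of at least 10 tags, NEAT1 had 26.1 and MALAT1 20.8 tags per 1000, and they ranked 6 and 2 per kb. With tags of named genes as the denominator the levels were 25.8 and 20.5 per 1000; both changes follow from the smaller denominator. Measured over the span from first to last cluster NEAT1 ranked 3 per kb, and among genes with at least 1 kb of clusters it ranked 4. Adding the adjoining clusters, a choice made after seeing the data, gave NEAT1 a rank of 8 per kb and a ratio to MALAT1 per kb of 0.431; with the largest cluster of each gene the ratio was 0.636. Leaving out 1 replicate at a time gave NEAT1 19.2 to 21.8 and MALAT1 16.2 to 16.3 tags per 1000, ranks per kb of 5 to 6 and 1 to 2, and ratios of 0.492 to 0.564. The number of NEAT1 and MALAT1 clusters with an unusual replicate split was 4, all in NEAT1 with less from replicate 1. It was 3 against the share of clusters with at least 100 tags, with MALAT1 among them in the opposite direction. It was 1 (MALAT1) against the share from the median ratio of the replicates, and 0 in the beta-binomial model. Whether this result stayed or moved was judged on the number, not on which clusters were called. The cause was not tested. The whole table had 26 calls, 18, 22 and 10 under these settings, and 50 when clusters of at least 30 tags were tested alone. No paired analysis was possible because both replicates belong to 1 group. Depth limits single clusters with few tags in replicate 1, such as those between the genes.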
